A study of Apis mellifera with 6 samples.

Results

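Antimicrobial peptides are small secreted molecules with which insects attack bacteria and fungi, and honey bees make a short set of them: hymenoptaecin, abaecin, apidaecin and the defensins. Peptidoglycan recognition proteins (PGRPs) bind a component of the bacterial cell wall. In Drosophila such recognition starts the Toll and Imd pathways, which end in transcription factors of the NF-kB family that switch on peptide genes. The peptides are best known from the fat body and haemocytes, and the gut epithelium, which meets the gut bacteria first, makes them too. The genes of these peptides and recognition proteins were followed here in the midguts of heat-stressed bees. Members were gene IDs equal to LOC406142 (hymenoptaecin), LOC406144 (abaecin), LOC406143, Def1 or Def2, or beginning with Apid, PGRP or GNBP. Of the 10151 genes listed, 6 met this rule, namely 4 peptide genes (LOC406142, LOC406144, Def1 and Apid1) and 2 recognition genes (Pgrp-s2 and PGRP-S3). LOC406143 is the gene ID of Def1 itself. Def2 and genes with an ID beginning with GNBP were not analysed here.

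The libraries came from poly(A)-selected RNA of single midguts of honey bees (Apis mellifera), 3 from bees kept in cages at 45 °C for 4 h and 3 from bees kept at 35 °C, the temperature of the incubators. Per the labels, bees at both temperatures were fed sucrose solution with 0.5% DMSO for 4 h. Each of the 3 libraries at 35 °C, and none at 45 °C, is marked in the labels as a re-analysed sample from an earlier series, so temperature and series cannot be told apart. DMSO controls in other data sets of the study were fed for longer, and whether the reused libraries at 35 °C come from such bees is not clear from the sources used here, so time in the cage may differ with temperature. The study's methods describe adult bees of mixed subspecies, caught at the landing board of outbred colonies, 1 colony per experiment, with visibly sick bees passed over. The sources used here give neither their age nor the microbes they carried.

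The values are normalized counts, that is, reads per gene divided by a size factor for each library. The reads recovered from them came to 24690115 to 26921417 in a library at 45 °C and to 23305758 to 26279130 in one at 35 °C. Levels are not corrected for transcript length, so they are compared between libraries and not between genes. Of alpha-glucosidase genes listed as midgut markers, Hbg2 had normalized counts of 724830 to 1021600 in midguts at 45 °C and of 478500 to 804950 in midguts at 35 °C, and AGLU2 from 541880 to 583350 at 45 °C and from 549660 to 645570 at 35 °C. Hbg3, on the same list but known from the hypopharyngeal gland, ranged from 1863 to 1982 at 45 °C and from 1089 to 1578 at 35 °C. Other midgut markers could not be found by symbol. Genes on marker lists of other tissues had reads as well. Whether these reads came from those tissues was not tested. The fat body list (Vg, Hex70a, HEX70b, Hex70c and Hex110) summed to between 923 and 1406 normalized counts at 45 °C and between 643 and 834 at 35 °C, and no gene of it was at 0 in any library. Of these 5 genes, 2 were higher at 45 °C past the threshold used below (Vg and Hex110), where 13.1% of all genes were, and none was lower, although HEX70b was below its 35 °C values in all 3 midguts at 45 °C (log2 fold change -0.91). Of 6 muscle genes, 2 were past the threshold as lower (TpnCIIIa with -1.03 and TpnCIIIb with -1.13), where 4.94% of all genes were. Both lay below their 35 °C values without overlap, as 26.4% of all genes did. The other 4 overlapped and were not past the threshold (log2 fold change 0.43 for TpnT, 0.22 for TpnCIIb, 0.16 for TpnI and -0.03 for TpnCI). The muscle list summed to between 5571 and 6821 normalized counts at 45 °C and between 4502 and 7283 at 35 °C. Of 3 hypopharyngeal gland genes (Mrjp4, Mrjp7 and Mrjp8) none was past it, and they summed to between 1293 and 2199 at 45 °C and between 1426 and 2712 at 35 °C. PPO, the only haemocyte marker found, had normalized counts of 97.3 to 111 in midguts at 45 °C and of 54.2 to 65.3 in midguts at 35 °C.

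Hymenoptaecin and Pgrp-s2 were lower in midguts at 45 °C, and none of the 6 genes was higher. A gene was counted as changed when limma, fitted to log2(normalized count + 1) of all 10151 genes, gave an adjusted p (Benjamini-Hochberg) under 0.05 with a log2 fold change beyond 1 in either direction. Thus 2 of the 6 genes were past the threshold as lower, where 4.94% of all genes were, and 0 were higher, where 13.1% of all genes were. DESeq2 and edgeR on the recovered reads also counted 2 lower genes, beside 5.25% and 4.95% of all genes, and 0 higher, beside 13.6% and 13.2%. None of the 6 was higher at an unadjusted p below 0.05. The median log2 fold change of the 6 genes was -0.62, beside -0.01 over all genes. In 2 of the 6 genes every library at 45 °C was below every library at 35 °C, as in 26.4% of all genes (53.2% had no overlap in one direction or the other), and in the other 4 the temperatures overlapped. As each library is a bulk midgut, fewer cells that express a gene and less RNA of it per cell cannot be told apart.

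**Figure D1:**
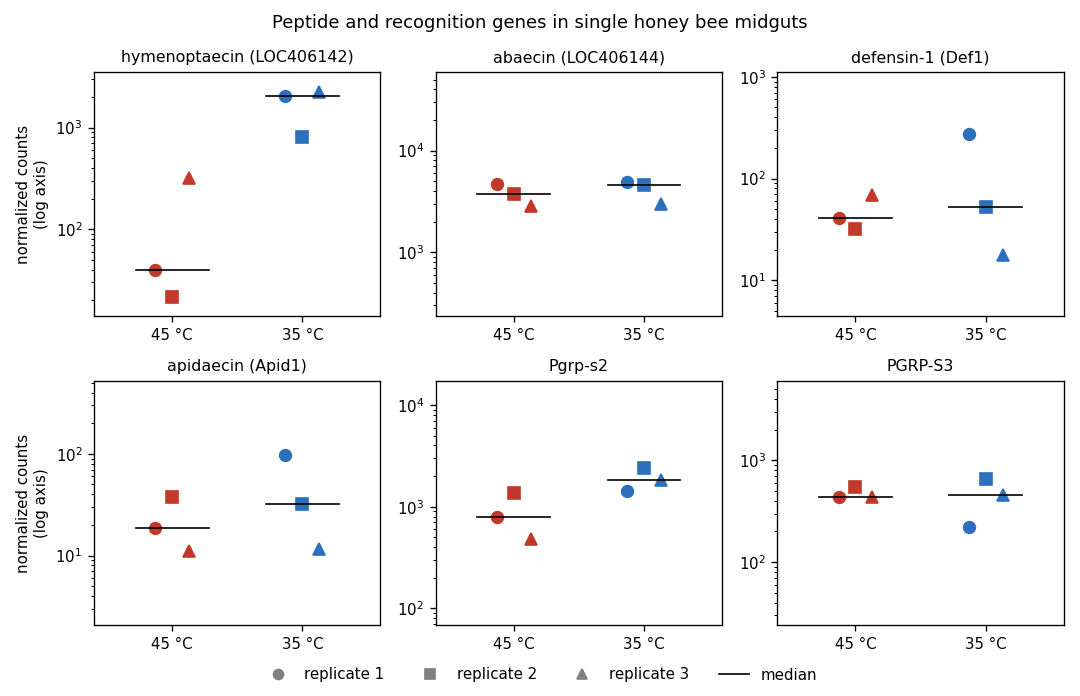
Normalized counts of the 6 genes in each midgut, on log axes of equal span, with the 3 libraries at 45 °C left of the 3 at 35 °C and a line at each median. Hymenoptaecin at 45 °C lies between 21.6 and 321 and at 35 °C between 802 and 2245, with no overlap, and Pgrp-s2 is the only other gene of which the temperatures do not overlap.

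Hymenoptaecin, the glycine-rich peptide of bees and their relatives that acts on bacteria, had the largest difference of the 6 genes. LOC406142 had 39.4, 21.6 and 321 normalized counts in the midguts at 45 °C, against 2061, 802 and 2245 in those at 35 °C. The highest midgut at 45 °C was thus below the lowest at 35 °C, and replicate 3 at 45 °C stood well above the other two of its temperature. In reads these were 32, 19 and 321 at 45 °C, and 2210, 948 and 2543 at 35 °C. The 95% Poisson intervals of the counts at 45 °C were 21.9 to 45.2, 11.4 to 29.7 and 287 to 358, so the gap between replicate 3 and the other two exceeded counting error. Such intervals cover counting error only, since reads without molecular identifiers are not independent molecules. The mean was 127 ± 168 at 45 °C and 1703 ± 785 at 35 °C (SD of 3 midguts each), so the mean at 45 °C was 7.48% of that at 35 °C.

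The log2 fold change of LOC406142 was -4.54 (SE 0.92, 95% interval -6.68 to -2.41, limma adjusted p = 0.00741). It ranked 2 of the 10151 genes when these were ordered from the lowest log2 fold change. DESeq2 gave -3.74 (adjusted p = 0.00475) and edgeR -3.72 (adjusted p = 0.0175). With 1 library left out in turn it was past the threshold in 6 of 6 cases, and the largest moves came from 45 °C replicate 3, without which it was -5.68 (adjusted p = 0.00113 from limma), and from 45 °C replicate 2, without which it was -3.76 (adjusted p = 0.0217 from limma). The summed fat body markers were higher at 45 °C in all 3 midguts, as given above. Of 6 muscle genes 2 were lower and 4 not past the threshold, and their sum overlapped between the temperatures. The part of either tissue in the results for hymenoptaecin and Pgrp-s2 was not tested. In a RefSeq gene table of the assembly Amel_HAv3.1, which is not the build used for the counts, LOC406142 lies within the span of LOC552342. How reads in such overlaps were assigned is not stated in the sources used here. LOC552342 had 1951, 768 and 1031 normalized counts at 45 °C, against 1016, 937 and 1188 at 35 °C. The log2 fold change of 0.15 (SE 0.31, limma adjusted p = 0.734) was within its error.

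Abaecin, a proline-rich peptide, did not pass the threshold. LOC406144 had 4703, 3719 and 2822 normalized counts at 45 °C, against 4868, 4571 and 2977 at 35 °C. At each temperature replicate 1 was highest and replicate 3 lowest, and the groups overlapped. Its mean of 3748 ± 941 at 45 °C and 4139 ± 1017 at 35 °C (SD of 3 midguts each) gave a log2 fold change of -0.14 (SE 0.24, limma adjusted p = 0.676). The 95% interval ran from -0.71 to 0.43. The log2 fold change was 0.05 without 45 °C replicate 3, and -0.53 (adjusted p = 0.0778 from limma) when libraries were scaled by size alone. In the same gene table it lies within the span of LOC414025, which had 986, 1345 and 1024 normalized counts at 45 °C and 671, 729 and 656 at 35 °C, without overlap (log2 fold change 0.69, SE 0.15, limma adjusted p = 0.00977, below the fold required). The reads of abaecin are therefore uncertain to the extent that the pair share sequence.

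Set against abaecin within each library, hymenoptaecin gave 0.838, 0.580 and 11.4 reads per 100 abaecin reads in the midguts at 45 °C. In the midguts at 35 °C it gave 42.3, 17.6 and 75.4. The values at 45 °C all lay below those at 35 °C. This ratio of reads does not depend on the scaling of the libraries, since both genes are counted in the same one. The log2 ratios tested next were taken on log2(normalized count + 1), so the added 1 leaves some dependence on the scaling. They were not planned, and hymenoptaecin was already known as the member with the largest difference in these same libraries. The p-values of its ratios are therefore no independent test of its fall, and no conclusion is drawn from them. For abaecin the difference in log2 ratio was -4.40 (two-sided exact permutation p = 0.1, adjusted p = 0.167 over the 5 ratios computed). A p of 0.1 is the lowest possible with 3 libraries against 3. The ratio of hymenoptaecin to defensin-1 differed by -4.03 and to PGRP-S3 by -4.78, each again with an exact permutation p = 0.1 and adjusted p = 0.167. Its ratio to Pgrp-s2 differed by -3.34 (exact permutation p = 0.2, adjusted p = 0.25) and to Apid1 by -3.82 (exact permutation p = 0.3, adjusted p = 0.3), and in both the temperatures overlapped.

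Defensin-1, a cysteine-rich peptide that nurse bees also secrete into their jelly, had the largest spread of the 6 genes among midguts at 35 °C. Def1 had 40.6, 31.8 and 69.0 normalized counts at 45 °C, against 276, 52.5 and 17.7 at 35 °C. The 35 °C group thus held both the highest and the lowest value, and it enclosed all 3 midguts at 45 °C. The reads behind these values were few, 33, 28 and 69 at 45 °C, and 296, 62 and 20 at 35 °C. The 95% Poisson intervals at 35 °C, 263 to 332, 47.5 to 79.5 and 12.2 to 30.9, did not overlap, so these midguts differed by more than counting error. The log2 fold change was -0.51 (SE 0.88, limma adjusted p = 0.674), with a 95% interval from -2.55 to 1.53. DESeq2 and edgeR both gave -1.29 (adjusted p = 0.178 and 0.282). With limma it turned to 0.53 without 35 °C replicate 1 (adjusted p = 0.477 from limma), and the direction of Def1 rests on that library.

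Apidaecin, another proline-rich peptide, was low in most libraries. Apid1 had 18.5, 37.5 and 11.0 normalized counts at 45 °C, against 97.0, 32.2 and 11.5 at 35 °C. Replicate 1 at 35 °C stood above all other midguts, and the rest of the 35 °C values lay within the range at 45 °C. In reads these were 15, 33 and 11 at 45 °C, and 104, 38 and 13 at 35 °C. The log2 fold change was -0.72 (SE 0.77, 95% interval -2.51 to 1.06, limma adjusted p = 0.486), and without 35 °C replicate 1 it was 0.03. The gene table gives other apidaecin symbols as synonyms of Apid1. Apidaecins are made in several near-identical forms, and how reads were divided between any copies is not known, so its counts are uncertain.

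Summed over the 4 peptide genes, reads came to 3900, 3354 and 3222 in the midguts at 45 °C, and to 7830, 6450 and 5948 in those at 35 °C. This was 0.0136 ± 0.00169% of the reads at 45 °C and 0.0274 ± 0.00540% at 35 °C (SD of 3 midguts each). Abaecin took most of these reads in every library, between 87.6% and 97.9% at 45 °C and between 56.7% and 83.8% at 35 °C. Hymenoptaecin took 0.821%, 0.566% and 9.96% of them at 45 °C, and 28.2%, 14.7% and 42.8% at 35 °C. The sum of normalized counts, which uses the size factors in place of the total, was 3945 ± 798 at 45 °C and 6004 ± 1129 at 35 °C (SD of 3 midguts each). The log2 ratio of the means was -1.005 for the share of reads and -0.61 for normalized counts, so its size depended on the scaling.

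Of the recognition genes, Pgrp-s2, a short PGRP, was lower at 45 °C. It had 789, 1355 and 481 normalized counts in midguts at 45 °C, against 1430, 2425 and 1811 in midguts at 35 °C. The groups did not overlap, but replicate 2 at 45 °C came close to replicate 1 at 35 °C. The mean was 875 ± 443 at 45 °C and 1889 ± 502 at 35 °C (SD of 3 midguts each), a log2 fold change of -1.20 (SE 0.36, 95% interval -2.05 to -0.35, limma adjusted p = 0.0341). DESeq2 gave -1.11 (adjusted p = 0.00708) and edgeR -1.11 (adjusted p = 0.0450). The call depended on single libraries and was kept in 2 of 6 cases with 1 left out. It was lost without 45 °C replicate 1 (-1.19, adjusted p = 0.0840 from limma), without 45 °C replicate 3 (-0.83, 0.0794), without 35 °C replicate 2 (-1.005, 0.0963) and without 35 °C replicate 3 (-1.22, 0.0763). In the gene table Pgrp-s2 overlaps LOC100576758, which had 182, 242 and 149 normalized counts at 45 °C, against 137, 393 and 287 at 35 °C, with a log2 fold change of -0.41 (SE 0.38, limma adjusted p = 0.426).

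PGRP-S3, the other short PGRP, did not pass the threshold. The gene table lists Pgrp-sa as its synonym, the name of the Drosophila protein that detects Gram-positive bacteria for the Toll pathway. It had 439, 548 and 439 normalized counts at 45 °C, against 220, 651 and 455 at 35 °C. The 3 midguts at 45 °C were close to each other and lay within the range of those at 35 °C, where replicate 1 was lowest. The log2 fold change was 0.23 (SE 0.36, 95% interval -0.61 to 1.07, limma adjusted p = 0.639), and it was -0.20 without 35 °C replicate 1. It was -0.15 when libraries were scaled by size alone, a scaling that moved the median of all genes to -0.39.

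The 6 genes varied in different ways between midguts of one temperature. As a description, the SD of the log2 values was set beside that of all genes, for which the median was 0.23 at either temperature. At 45 °C hymenoptaecin had an SD of 2.02, above that of 99.5% of genes, and PGRP-S3 had one of 0.18, below the median. At 35 °C defensin-1 had 1.96, apidaecin 1.49 and hymenoptaecin 0.82, at the 99.4, 98.6 and 93.1 percentiles. Abaecin had 0.37 at 45 °C and 0.39 at 35 °C, at the 72.0 and 73.5 percentiles. Percentiles were also taken among genes whose mean at that temperature was within a log2 of 1. At 45 °C these were 99.5 for hymenoptaecin, 98.2 for Pgrp-s2, 82.9 for abaecin, 80.5 for apidaecin, 70.8 for defensin-1 and 52.6 for PGRP-S3. At 35 °C they were 99.2 for defensin-1, 97.9 for PGRP-S3, 97.6 for hymenoptaecin, 97.5 for apidaecin, 87.5 for Pgrp-s2 and 86.4 for abaecin. At 45 °C hymenoptaecin and defensin-1 were both highest in replicate 3 and lowest in replicate 2, and apidaecin was highest in replicate 2 and lowest in replicate 3. At 35 °C hymenoptaecin was again highest in replicate 3 and lowest in replicate 2, and apidaecin was again lowest in replicate 3. Defensin-1 took another order. Replicate 1 at 35 °C had the highest defensin-1 and apidaecin and the lowest PGRP-S3, whereas at 35 °C hymenoptaecin was highest in replicate 3, in which defensin-1 and apidaecin were lowest.

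**Figure D2:**
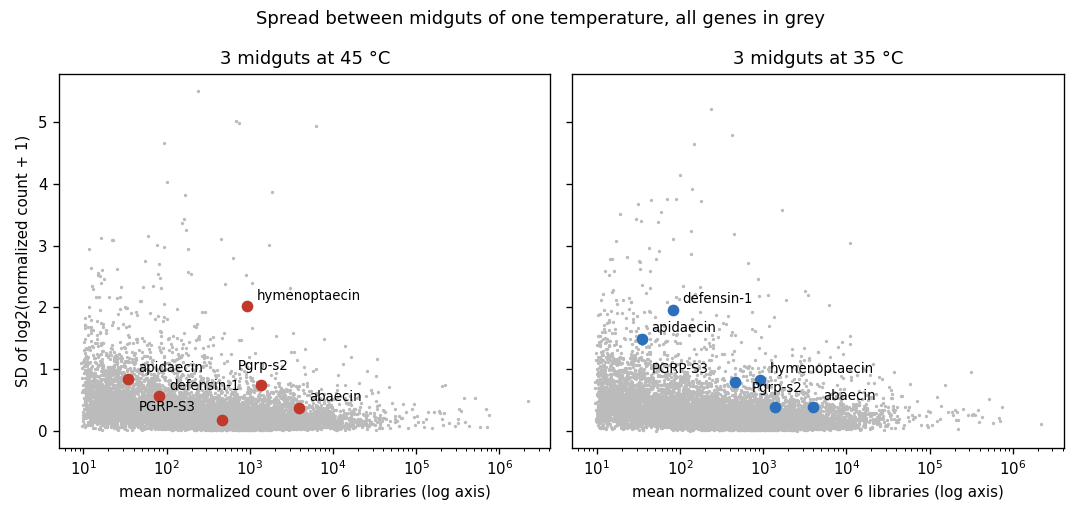
SD of log2(normalized count + 1) between the 3 midguts of a temperature (45 °C left, 35 °C right) against the mean normalized count over the 6 libraries on a log axis, with every listed gene as a grey point and the 6 genes named. Hymenoptaecin at 45 °C (2.02) and defensin-1 at 35 °C (1.96) lie above nearly all genes, and abaecin stays near 0.4 at both temperatures.

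Other genes of these pathways were looked up by symbol, from lists of their receptors, signalling genes and effectors. Of the lists, 8 genes carried a symbol in the files, and B-gluc1 was added because the gene table gives Gnbp1-2 as its synonym. Of these 9 genes, 1 was past the threshold as higher at 45 °C, where 13.1% of all genes were, 1 as lower, where 4.94% were, and 7 not at all, and their median log2 fold change was 0.52. Another 3 of the 7 (Dl, Imd and PPO) had an adjusted p below 0.05 with a log2 fold change under 1, as did 2159 of all 10151 genes. With 1 library left out, the adjusted p from limma ran from 0.0523 to 0.14 for Dl. For Imd it ran from 0.0228 to 0.118 and for PPO from 0.0289 to 0.0638, so this count depended on single libraries. Listed genes that could not be found by symbol were not used here.

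18-w, a receptor of the Toll family named after the Drosophila gene 18-wheeler, was lower in midguts at 45 °C. It had 156, 116 and 223 normalized counts at 45 °C, against 687, 481 and 369 at 35 °C. No midgut at 45 °C reached the level of any at 35 °C, as in 26.4% of all genes. Its log2 fold change was -1.63 (SE 0.30, limma adjusted p = 0.00516), and it was past the threshold in 6 of 6 cases with 1 library left out, between -1.87 and -1.40. The transcription factor of the Toll pathway did not reach that fold. Dl (dorsal), which enters the nucleus when Toll signals, had 1376, 931 and 927 normalized counts at 45 °C, against 751, 776 and 685 at 35 °C, a log2 fold change of 0.52 (SE 0.18, limma adjusted p = 0.0485) that was below the fold the threshold asks for. Its inhibitor cact1 (cactus) had 494, 488 and 322 normalized counts at 45 °C, against 462, 208 and 225 at 35 °C, and the groups overlapped (log2 fold change 0.61, adjusted p = 0.172 from limma).

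Imd, the adaptor that gives the Imd pathway its name, had 507, 400 and 570 normalized counts at 45 °C, against 376, 302 and 320 at 35 °C. All 3 midguts at 45 °C were above those at 35 °C, as in 26.8% of all genes, but the log2 fold change of 0.56 (SE 0.17, limma adjusted p = 0.0384) was below the fold required. It was 0.17 and that of Dl 0.14 when libraries were scaled by size alone (adjusted p = 0.489 and 0.482 from limma).

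Dscam, an immunoglobulin receptor of neurons and haemocytes known for its many splice forms, was higher in midguts at 45 °C. It had 1266, 924 and 1552 normalized counts at 45 °C, against 550, 506 and 585 at 35 °C. All at 45 °C were above those at 35 °C, as in 26.8% of all genes. Its log2 fold change was 1.16 (SE 0.19, limma adjusted p = 0.00357). The call was lost without 45 °C replicate 3, with 0.98 (adjusted p = 0.0106 from limma), and when libraries were scaled by size alone, with 0.77 (adjusted p = 0.0164 from limma). PPO, the prophenoloxidase of melanization, had a log2 fold change of 0.79 (SE 0.20, limma adjusted p = 0.0175), below the fold required, and of 0.41 (adjusted p = 0.174 from limma) when libraries were scaled by size alone. Neither Tsf1 (transferrin, which binds iron) nor CTL5 (a C-type lectin) nor B-gluc1 was past the threshold. Tsf1 had 266, 811 and 278 normalized counts at 45 °C, against 352, 426 and 162 at 35 °C. For CTL5 the range was 116 to 141 at 45 °C and 109 to 120 at 35 °C, and for B-gluc1 it was 82.5 to 258 at 45 °C and 90.9 to 217 at 35 °C.

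**Figure D3:**
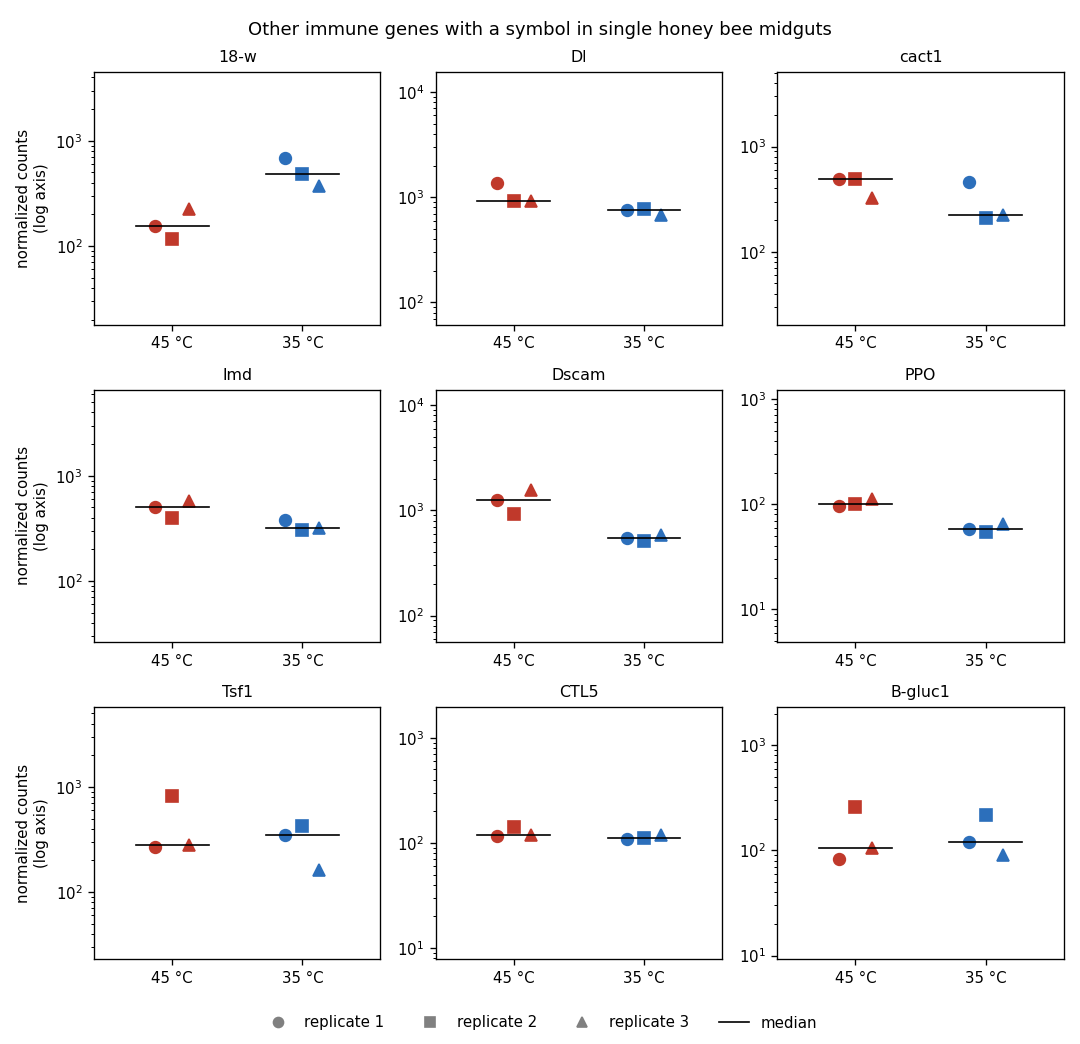
Normalized counts of 9 other immune genes in each midgut, on log axes of equal span, with the 3 libraries at 45 °C left of the 3 at 35 °C and a line at each median. 18-w lies between 116 and 223 at 45 °C and between 369 and 687 at 35 °C, Dscam between 924 and 1552 at 45 °C and between 506 and 585 at 35 °C.

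**Figure D4:**
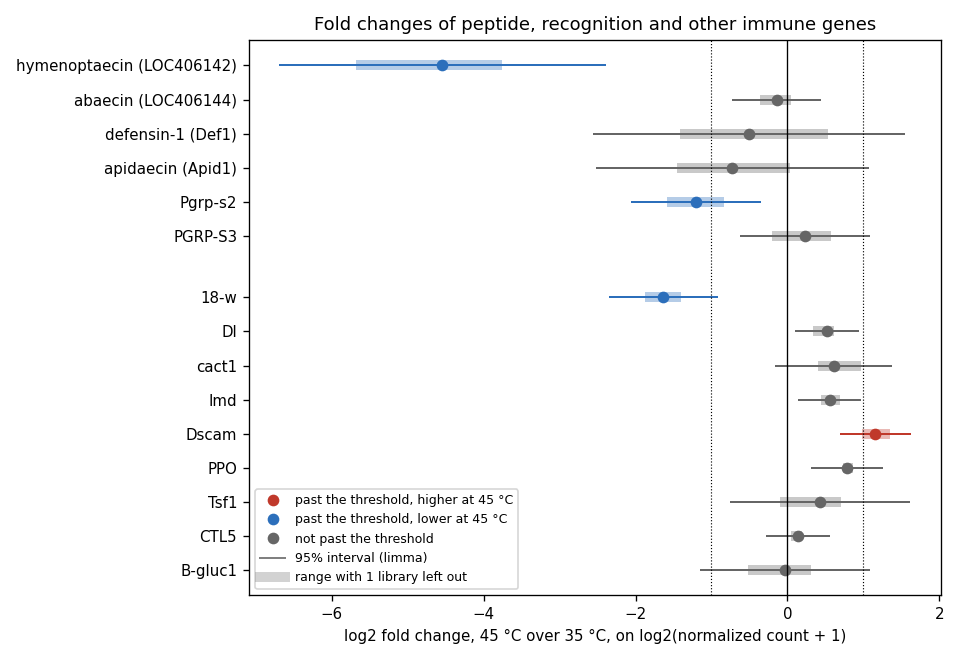
Log2 fold change (45 °C over 35 °C) of the 6 peptide and recognition genes and, below a gap, of 9 other immune genes. Points are limma estimates, thin lines their 95% intervals, thick bands the range with 1 library left out and dotted lines the fold required by the threshold. The estimate of hymenoptaecin (-4.54) lies below those of the other 5 genes of its group, which run from -1.20 to 0.23. Its interval (-6.68 to -2.41) overlaps those of defensin-1 (-2.55 to 1.53) and apidaecin (-2.51 to 1.06).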

How the data were processed

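Reads were trimmed, aligned to build Amel 4.5 and counted per gene by the authors, and the submitters' processing notes name Trimmomatic 0.36, STAR, Subread and DESeq2. The sources used here state neither annotation release nor use of strand. As signal values, the authors deposited these counts divided by a size factor per library, in 3 tables of 10151 genes normalized together. Every column was whole multiples of 1 step (100% of values within 0.01 of a read), so reads were recovered. Of listed genes, 9300 (91.6%) were found in the RefSeq gene table of Amel_HAv3.1, used for names, neighbours and overlaps only.

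limma 3.58.1 in R 4.3.3 (with a trend, no block) was fitted to log2(value + 1), on which scale fold changes of low genes are understated, over all genes with a mean of at least 1, which removed none. Limma was used because the values are not counts. DESeq2 1.42.0 and edgeR 4.0.16 were alternatives on the recovered reads. Tests were first tried on simulated reads. Other alternatives were library size alone, quantile normalization, pseudocounts of 0.1 and 10, no filter, a mean of at least 5, limma without trend, a block for the replicate number, leaving out each library and no minimum fold change. Each library was from 1 midgut, and no pair of the same temperature differed by less than sampling noise (chi-square of at least 44.8 per gene). Named were all members and, of the pathway lists, every gene found by symbol. Members and lists were chosen with earlier results of these data known. The count of genes without overlap was added after seeing the data. The ratios of hymenoptaecin to the other members, the Poisson intervals and the comparison of neighbouring genes were not among the planned results either.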

Additional observations from a re-analysis of the deposited data

How the results depend on the processing

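Of 66 values of the log2 fold changes of these 6 genes under settings that kept all libraries, 64 kept direction and call, but sizes moved. Def1 was -0.51 with limma and -1.29 with DESeq2 and edgeR, and LOC406144 was -0.14 and, with library size alone, -0.53. With limma without a trend Pgrp-s2 lost its call (-1.20, adjusted p = 0.0613), which left 1 lower gene in place of 2. With library size alone PGRP-S3 turned to -0.15. No filter and a mean of at least 5 removed no gene and so could change nothing. No minimum fold change used the main fit itself, so its fold changes could not move. The values of these settings are among the 66. With 1 library left out, the number of lower genes was 1 to 2 and of higher genes 0, and log2 fold changes ran from -5.68 to -3.76 for LOC406142, from -0.36 to 0.048 for LOC406144, from -1.41 to 0.53 for Def1, from -1.46 to 0.032 for Apid1, from -1.58 to -0.83 for Pgrp-s2 and from -0.20 to 0.58 for PGRP-S3. The log2 ratio of the summed peptide genes, -1.005 as a share of reads, was -0.61 for normalized counts and ran from -1.10 to -0.83 with 1 library left out.

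Of the 9 other immune genes, the 1 higher gene became 0 with library size alone and 4 with no minimum fold change, by construction, and it was 0 to 1 with 1 library left out, where the lower gene stayed at 1. With library size alone CTL5 turned to -0.24, and after quantile normalization to -0.026. B-gluc1 turned to 0.051 with DESeq2 and with edgeR, from -0.03. With 1 library left out, Tsf1 ran from -0.093 to 0.71 and B-gluc1 from -0.52 to 0.32.

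Over all genes, 1327 higher and 501 lower became 829 and 1616 with library size alone, 1080 and 804 with quantile normalization, and 2143 and 1844 with no minimum fold change. The first 2 of these settings moved the median log2 fold change to -0.39 and -0.15. The share of calls that were higher was 72.6%, against 33.9% and 57.3% under those settings in the same order. With 1 library left out there were 1177 to 1309 higher and 382 to 545 lower.

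The labels number the libraries 1 to 3 at each temperature without saying what a number shares. The authors deposited the values of same-numbered libraries together, as comparisons of 45 °C with 35 °C. Same-numbered libraries correlated in their deviations from the mean of their temperature at 0.15, 0.02 and 0.01. The value for replicate 1 (0.15) was the highest of any library at 45 °C with any at 35 °C. Replicate 2 at 45 °C correlated better with 35 °C replicate 3 (0.12) than with its own number. Deviations from means of 3 libraries constrain each other, so these values cannot decide whether the numbers mark pairs. The main fit was planned without pairs, with the replicate number as an alternative. The replicate block gave 2 lower and 0 higher of the 6 genes, 1 higher and 1 lower of the 9 others, and -4.54 for LOC406142 (adjusted p = 0.00194 from limma). It called 1348 genes higher and 524 lower over all genes.

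With 3 midguts a temperature and as few as 11 reads in a library, the 95% intervals of Apid1 (-2.51 to 1.06) and Def1 (-2.55 to 1.53) leave both directions possible.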

Other observations

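Genes next to the members in the RefSeq gene table (assembly Amel_HAv3.1) were compared in the same fit. Those nearest to hymenoptaecin, LOC411864 and LOC726498, had log2 fold changes of 0.75 (adjusted p = 0.0751) and -0.29 (adjusted p = 0.441 from limma), neither past the threshold. Of those next to abaecin, TRNAD-GUC, a transfer RNA gene, was past it as higher, with 23.4, 21.6 and 27.0 normalized counts at 45 °C against 0.933, 2.54 and 3.53 at 35 °C (log2 fold change 2.99, SE 0.53, limma adjusted p = 0.00430), and LOC107965076 was not (-0.85, adjusted p = 0.154 from limma). Of the neighbours of PGRP-S3, LOC552310 was past it as lower, with 146.5, 204 and 191 normalized counts at 45 °C against 314, 429 and 461 at 35 °C, a log2 fold change of -1.14 (SE 0.21, limma adjusted p = 0.00488). Those nearest to Pgrp-s2, LOC725158 and LOC551249, had -0.33 and -0.41 (adjusted p = 0.348 and 0.295 from limma). Those of Def1, Cat and LOC408887, had 0.32 and 0.17 (adjusted p = 0.239 and 0.436 from limma), LOC724692 next to Apid1 had -0.02 (adjusted p = 0.955 from limma), and LOC412125 next to PGRP-S3 had 0.30 (adjusted p = 0.516 from limma).

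Vg, the egg yolk protein vitellogenin of the fat body, had 84.9, 342 and 505 normalized counts at 45 °C, against 5.60, 87.2 and 13.2 at 35 °C. Its log2 fold change was 3.60 (SE 1.00, limma adjusted p = 0.0246), and the groups overlapped, since replicate 2 at 35 °C was above replicate 1 at 45 °C. Hex110, a storage protein, had 440, 465 and 357 normalized counts at 45 °C, against 106, 130 and 165 at 35 °C (log2 fold change 1.66, adjusted p = 0.00106 from limma). HEX70b had a log2 fold change of -0.91 (adjusted p = 0.0297 from limma), below the fold required, so genes of the fat body list did not move as one.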
